A study of Mus musculus with 6 samples.

Results

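The regions described here are stretches of the mouse genome at the ends of protein-coding genes where acetylation of histone H3 at lysine 27 (H3K27ac) was called in every library of Ppp2ca-deficient hematopoietic stem cells and in no wild-type library. All peaks of the 6 deposited peak lists on chromosomes 1 to 19 and X were joined into regions at any overlap of 1 bp or more, which gave 104143 regions. Of these, 14291 lay within 1000 bp of either end of a protein-coding gene in the RefSeq annotation of GRCm38 and are called gene-end regions below. A knockout-only region had a peak in all 3 knockout lists and in no wild-type list, and 935 gene-end regions met that rule, 6.54% of the gene-end regions. The mirrored pattern, all 3 wild-type lists and no knockout list, was met by 3 gene-end regions, or 0.021%. Because presence in the lists chose the 935 regions, their presence, height, width and q-values are described without a test.

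H3K27ac was profiled with CUT&RUN, in which an antibody guides protein G fused to micrococcal nuclease to the mark and the released fragments are sequenced. The 6 libraries came from primary bone-marrow hematopoietic stem cells, the self-renewing cells from which all blood lineages arise. The 3 control libraries were made from mice with wild-type Ppp2ca and the 3 others from mice deficient in Ppp2ca, abbreviated KO below. The sources used here do not give the deleted part of Ppp2ca, what drove its deletion, or the strain, age and sex of the mice. No label carries an animal number, so spread between libraries was taken as the spread within a genotype and may be partly technical.

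H3K27ac is written by the acetyltransferases p300 and CBP and removed by histone deacetylases, and it marks active promoters and enhancers. At the start of an active gene the mark usually flanks the nucleosome-depleted promoter on both sides. Ppp2ca encodes a catalytic subunit of protein phosphatase 2A (PP2A), a serine/threonine phosphatase that joins a scaffold and 1 of many regulatory subunits, including B55, B56 and striatin proteins.

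The lists held 21917 to 29945 peaks in wild-type and 34016 to 50453 in KO libraries, and those reaching q ≤ 0.05 numbered 3652 to 4695 against 16120 to 23744. The sources used here do not give read totals. The caller's genome-wide background, solved from the deposited fold and p-values, was 0.498 to 0.584 fragments per 200 bp in wild-type and 0.465 to 0.827 in KO libraries. A peak needed at least 3 fragments at its summit in 5 lists and 4 in KO replicate 3. Ppp2ca itself is not among the members: a region at its start (chr11:52098444-52100134) had a peak in all 6 lists, and whether that checks the deletion depends on the deleted part. The labelled cell type was compared with marker genes. A gene-end peak was present at 5 to 10 of 30 stem cell identity genes in a wild-type list and at 7 to 11 in a KO list. No list held one at Hlf, Mecom, Slamf1, Cd34, Ly6a or Tek, and Procr had one in 1 KO list, whereas Runx1, Tal1, Lyl1 and Etv6 had one in all 6. The myeloid markers Csf1r, Csf2ra, Csf3r, Cebpe, Cebpb and Spi1 also had one in all 6 lists, but Elane and Ltf in none. Klf1 and Epb41 (erythroid), Cd3d and Tcf3 (lymphoid), Itga2b and Gp1ba (megakaryocyte) and Pecam1 (endothelial) had one in all 6 as well. Over whole marker lists, the wild-type lists marked 8 to 15 of 25 myeloid, 5 to 11 of 22 erythroid, 3 to 5 of 26 lymphoid and 4 to 8 of 19 megakaryocyte genes. The KO lists marked 16 to 17, 14 to 16, 3 to 9 and 4 to 8. The single genes were picked out after their values were seen, and the part of any cell mixture in the results below was not tested.

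Most knockout-only regions sat on gene starts, and the DNA just before the start is shown for 8 of the best ranked so that the promoter type can be read. Each sequence is the 150 bases before a RefSeq start (GRCm38.p6, 5′ to 3′ on the strand of the gene), taken where these bases lie outside every annotated protein-coding gene and the start lies inside the region. Capitals mark matches, on either strand and searched separately so that matches may overlap, to 10 motifs: the GC box with letters GGGCGG, the ETS core with CCGGAAG, the CCAAT box, the CRE with TGACGTCA, the E-box with CACGTG, the NRF1 core with TGCGCATG, the TATA box with TATAAA, the GATA motif with AGATAA, the AP-1 motif with TGANTCA and the Runx motif with TGTGGTT.
Eef1e1, chr13:38659029-38659178, minus strand: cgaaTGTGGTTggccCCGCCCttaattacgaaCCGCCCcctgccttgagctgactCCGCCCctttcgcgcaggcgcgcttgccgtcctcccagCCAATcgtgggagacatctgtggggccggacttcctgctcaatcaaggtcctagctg
Mib2, chr4:155669255-155669404, minus strand: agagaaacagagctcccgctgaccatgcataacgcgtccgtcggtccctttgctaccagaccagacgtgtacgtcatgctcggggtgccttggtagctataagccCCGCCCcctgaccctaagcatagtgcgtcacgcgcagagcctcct
Ube2j2, chr4:155943663-155943812, plus strand: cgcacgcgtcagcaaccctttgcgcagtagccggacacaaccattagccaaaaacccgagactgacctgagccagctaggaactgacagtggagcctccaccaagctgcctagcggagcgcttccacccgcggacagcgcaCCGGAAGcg
Snrpb2, chr2:143062919-143063068, plus strand: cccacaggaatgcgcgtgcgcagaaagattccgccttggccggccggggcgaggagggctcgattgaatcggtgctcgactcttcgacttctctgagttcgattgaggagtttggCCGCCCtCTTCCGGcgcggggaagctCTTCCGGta
Thg1l, chr11:45955504-45955653, minus strand: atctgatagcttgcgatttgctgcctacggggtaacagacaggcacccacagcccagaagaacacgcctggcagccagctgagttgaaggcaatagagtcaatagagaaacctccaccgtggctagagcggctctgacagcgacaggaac
Ddx52, chr11:83941940-83942089, plus strand: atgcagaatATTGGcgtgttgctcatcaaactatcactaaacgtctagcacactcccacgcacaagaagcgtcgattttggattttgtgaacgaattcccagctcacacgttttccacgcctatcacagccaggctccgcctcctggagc
Faap24, chr7:35396768-35396917, minus strand: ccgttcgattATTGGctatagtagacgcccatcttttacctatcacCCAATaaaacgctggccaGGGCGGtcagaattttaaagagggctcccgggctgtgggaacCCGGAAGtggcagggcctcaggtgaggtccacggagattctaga
Mrps9, chr1:42851083-42851232, plus strand: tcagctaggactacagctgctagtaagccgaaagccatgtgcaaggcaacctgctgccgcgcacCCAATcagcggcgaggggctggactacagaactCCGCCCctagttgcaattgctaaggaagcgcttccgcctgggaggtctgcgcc

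A match is a description of letters and not evidence of binding. In 5 of these 8 sequences a GC box was found, in 3 an ETS core and in 4 a CCAAT box, while Thg1l, which encodes the enzyme that adds a guanylate to histidine tRNA, had none of the 10 motifs. Across windows of the same length, a GC box was present in 55.6% of the 649 promoters reached by knockout-only regions, in 53.3% of the 2913 promoters of regions present in all 6 lists and in 38.3% of all 17273 protein-coding promoters. The ETS core was present in 14.8%, 16.1% and 7.56%, and the CCAAT box in 33.4%, 30.4% and 27.4%, in the same order. Snrpb2, which encodes a U2 snRNP protein, carried 2 ETS matches and a GC box close to its start and 17 CpG dinucleotides in the 150 bases. Eef1e1, a scaffold of the multi-tRNA synthetase complex, carried 3 GC boxes.

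A smaller group of knockout-only regions covered starts poor in CpG, the promoter type of many genes restricted to a cell type. The 3 best ranked of these with a ratio of observed to expected CpG under 0.3 in the 300-base promoter window are shown in contrast. They were chosen after values were seen.
Csf2rb2, chr15:78305722-78305871, minus strand: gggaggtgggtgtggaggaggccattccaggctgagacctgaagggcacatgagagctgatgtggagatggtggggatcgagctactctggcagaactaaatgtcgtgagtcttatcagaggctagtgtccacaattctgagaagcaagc
Mrgpra2a, chr7:47452165-47452314, minus strand: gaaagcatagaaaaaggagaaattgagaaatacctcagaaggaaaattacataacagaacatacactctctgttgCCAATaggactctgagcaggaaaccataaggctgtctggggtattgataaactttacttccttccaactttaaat
Ccr1, chr9:123968693-123968842, minus strand: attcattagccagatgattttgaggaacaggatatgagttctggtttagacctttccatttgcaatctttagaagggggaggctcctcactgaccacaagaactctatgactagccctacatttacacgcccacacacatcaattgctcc

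Csf2rb2 encodes the mouse IL-3-specific receptor beta chain, Ccr1 a chemokine receptor of myeloid cells and Mrgpra2a a Mas-related G protein-coupled receptor. The region at Csf2rb2 (chr15:78304932-78305830) had folds over background of 5.13, 4 and 4.62 in KO replicates 1, 2 and 3. At Ccr1 (chr9:123968017-123968869) the folds were 3.24, 3.76 and 3.45, and at Mrgpra2a (chr7:47451646-47452596) they were 3.49, 4.72 and 5.26. The nearest wild-type peak was 188 bp from the Mrgpra2a region, so this region borders a site that a wild-type list also called.

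The promoters reached by knockout-only regions were CpG-rich as a group. Their median ratio of observed to expected CpG in the 300-base window was 0.766 (quartiles 0.621 and 0.897, n = 649 genes). It was 0.791 for regions also called in 1 wild-type list, 0.819 for 2 and 0.840 for 3, and 0.285 for the 8224 promoters of genes with no gene-end region. A ratio above 0.6 was found at 76.9% of the knockout-only promoters, 84.8% of those in all 6 lists and 48.1% of all promoters. Median GC content was 60.3%, 61.0% and 56.3%. A TATA box was found in 6.16%, 7% and 13.4% of the 300-base windows of the same 3 sets, and GATA in 7.70%, 5.60% and 9.91%. In base composition the knockout-only promoters lay nearer to the shared promoters than to promoters without any peak. These are descriptions of sets chosen by peak presence and were not tested.

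Most of the regions contained a gene end. Widths ran from 275 to 2167 bp with a median of 886 bp (quartiles 690.5 and 1095.5 bp). A gene end lay inside the region in 665 of 935 (71.1%). The strand of every nearby gene was known for 745 regions, of which 643 (86.3%) lay at starts only, 47 (6.31%) at 3′ ends only and 55 (7.38%) at both. Regions called in all 6 lists lay at starts only in 89.4%, at 3′ ends only in 2.68% and at both in 7.89% of 2534. Over all gene-end regions the shares were 76.1%, 17.9% and 6.04% of 11373. A protein-coding promoter window was reached by 605 knockout-only regions (64.7%), against 78.1% of the regions in all 6 lists. Starts of 2 genes on opposite strands were covered by 65 knockout-only regions (6.95%), against 466 (14.8%) of the 3143 regions in all 6 lists. The 935 regions touched 1062 genes, 786 regions reaching 1 gene, 144 reaching 2 and 5 reaching 3. Over genes, 1062 is 9.58% of the 11083 protein-coding genes with any gene-end region.

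The share of knockout-only regions was highest where a gene end lay inside the region. It was 9.02% (665 of 7373) where the end lay inside the region, 4.72% at up to 500 bp, 2.90% from there to 1000 bp, 2.38% from there to 1500 bp and 2.48% from there to 2000 bp. Away from gene ends, 1888 of 89852 regions were knockout-only, or 2.1%. A wider region contains a gene end more readily, and these shares were not compared at equal width. Just inside the 1000 bp limit lay the regions of Pnpla7, at 998 bp with folds of 2.27, 2.75 and 2.52, and Adam1b, at 991 bp with folds of 4.20, 3.57 and 3.10. Just outside lay those of Cd101, at 1001 bp with folds of 3.45, 3.95 and 4.08, and Tdp1, at 1005 bp with folds of 4.03, 4.73 and 3.76. By chromosome the share ran from 5.02% on chromosome 1 to 8.56% on X.

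Peak heights at these regions were modest. The fold is the authors' fold of fragments over local background at the peak summit, and a region's value is that of its best peak in each list. Median folds were 4.04 in KO replicate 1 (range 2.12 to 8.41), 3.78 in replicate 2 (2.25 to 8.85) and 4.17 in replicate 3 (2.16 to 8.26). Median summit heights solved from these values were 9, 6 and 10 fragments. Heights were solved for 931, 934 and 933 of the 935 regions and left unsolved at the most significant peaks, and the highest solved values were 27, 29 and 31. In 177 regions (18.9%) the lowest of the 3 KO summits held at most 4 fragments, near the smallest number any list could call, and in 100 (10.7%) it held at least 10. Precision of a single region is therefore set by small fragment counts. KO replicate 2 was the weakest list for 443 of the 935 regions, replicate 3 for 351 and replicate 1 for 141. A q-value of at most 0.05 was reached in 765, 569 and 813 regions in KO replicates 1, 2 and 3. All 3 lists reached it in 449 regions (48.0%), against 79.8% of the 6920 gene-end regions with a peak in all 3 KO lists, and 23 regions reached it in none.

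**Figure D1:**
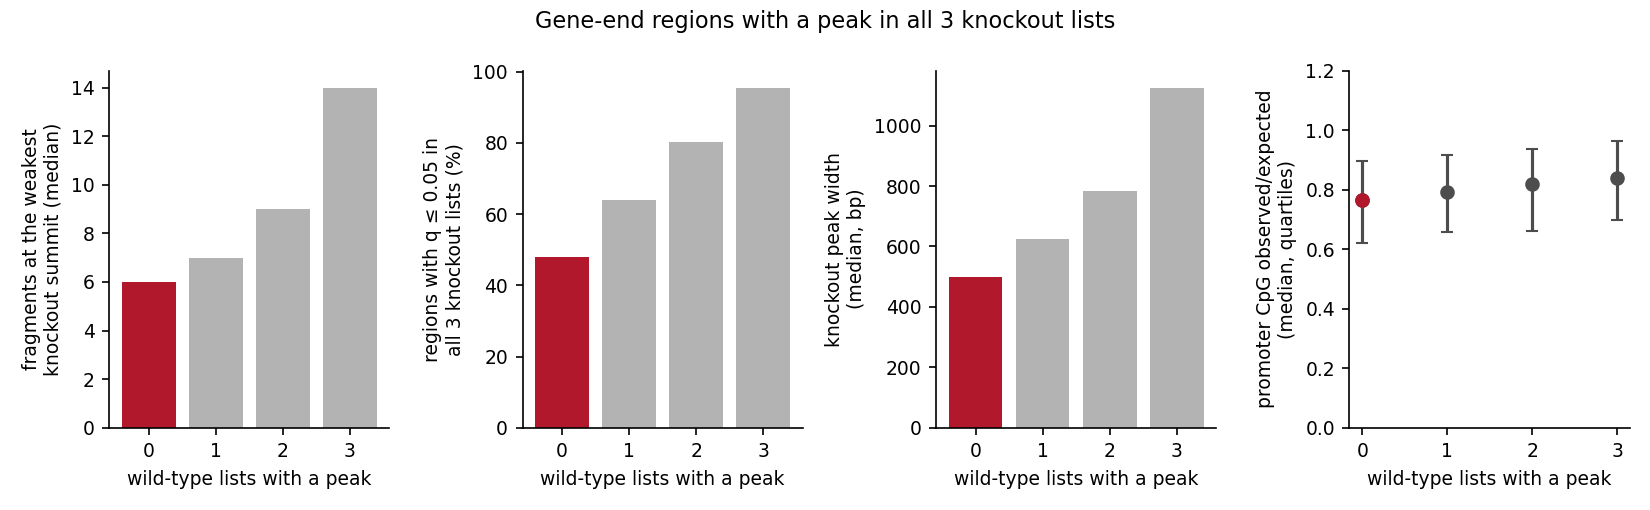
Gene-end regions with a peak in all 3 KO lists, grouped by the number of wild-type lists with a peak (x axes); from left, the median of the lowest KO summit height in fragments, the percentage with q of at most 0.05 in all 3 KO lists, the median KO peak width in bp, and the promoter CpG ratio of observed to expected (points are medians, bars quartiles). Knockout-only regions, in red, had the lowest value in each panel: 6 fragments, 48.0%, 499 bp and 0.766.

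Among the 6920 gene-end regions with all 3 KO peaks, 935 (13.5%) had no wild-type peak, 1305 had one in 1 list, 1537 in 2 and 3143 in 3. In that order the median of the lowest KO summit was 6, 7, 9 and 14 fragments, the last over the 2968 regions of 3143 with a solved height. Median KO peak width was 499, 624, 785 and 1126 bp. The share with q of at most 0.05 in all 3 KO lists was 48.0%, 63.9%, 80.4% and 95.6%. The plot by number of wild-type lists shows that the knockout-only regions are the low end of a graded series in height and width. In these lists a missing wild-type peak is a missed threshold, and a lower level cannot be told apart from a shorter wild-type list. Nor can fewer cells carrying the mark be told apart from less mark per cell, since each library pools many cells.

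The KO peaks usually coincided within a region. At least 1 bp was common to the peaks of all 3 KO lists in 818 regions (87.5%) and at least 100 bp in 699 (74.8%), with a median common stretch of 221 bp. The outermost of the 3 best summits were a median of 321 bp apart, within 200 bp in 273 regions (29.2%) and over 500 bp apart in 201 (21.5%). At Rfk, which encodes riboflavin kinase and was among the 3 last ranked, the 3 KO peaks had no base in common and the fold in KO replicate 2 was 2.27 with 3 fragments. The last 2 regions, at Cyb561d2 with Nprl2 and at Rilp with Scarf1, also rested on 3 fragments in KO replicate 2.

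Wild-type peaks were often near. The nearest wild-type peak lay within 500 bp of 146 regions (15.6%), within 1000 bp of 197 (21.1%) and within 5 kb of 361 (38.6%), with a median gap of 7899 bp. Of the 146 within 500 bp, 119 had such a peak in 1 wild-type list, 25 in 2 and 2 in 3. Closest to the limit were Polr1e, 1 bp from a wild-type peak with folds of 4.65, 5.23 and 4.51, and Sptb, 3 bp away with folds of 3.36, 2.63 and 4.91. On the other side, a region at Limk1 was left out for an overlap of 2 bp (5.96, 5.29 and 4.59) and one at Slc6a6 for 8 bp (2.74, 3.00 and 3.08). Slc6a6 counted through another region, 5 bp from a wild-type peak. Of the 1062 genes, 306 (28.8%) had another gene-end region with a wild-type peak, and 425 (40%) had no wild-type peak anywhere from 1000 bp before to 1000 bp after the gene.

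The best ranked regions were ordered by the least favourable of their 3 rank percentiles by p-value within the KO lists, since heights of separate lists are not on 1 scale. In the 20 best, folds ran from 4.65 to 8.85, all 20 had bases common to the 3 KO peaks, and 16 lay at a start, while 4 had no strand on record. They touched 26 genes, 15 of which had no wild-type peak in the gene or 1000 bp around it.

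**Figure D2:**
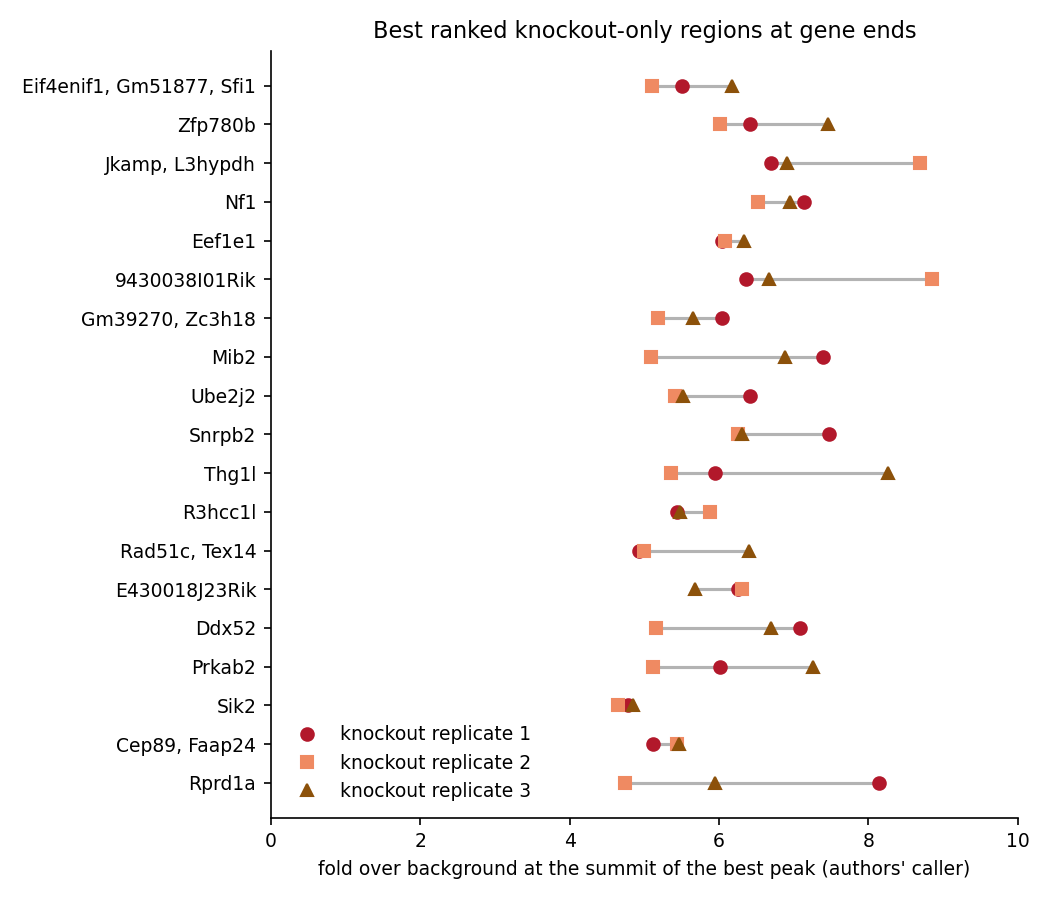
Fold over background at the summit of the best peak (x axis) in each KO replicate for 19 of the 20 best ranked knockout-only regions, named by the genes whose ends they reach; lines join the lowest and highest replicate. All values lie between 4.65 and 8.85.

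The best ranked region covered the start of Eif4enif1, a transporter that carries the translation factor eIF4E to the nucleus, and lay within 1000 bp of ends of Sfi1, a centrosomal protein gene, and Gm51877 (chr11:3201609-3202654). Its folds were 5.51, 5.10 and 6.17, and 799 bp were common to the 3 KO peaks. The summit held 29 fragments in KO replicate 2, and heights in replicates 1 and 3 were not solved. In replicate 2, Zfp780b (below) reached a higher fold on 12 fragments, so local background was higher at the best ranked region. A second knockout-only region followed it (chr11:3202840-3203529) with folds of 2.99, 3.95 and 2.71. The nearest wild-type peak lay 1689 bp from the best ranked region. In the gene or 1000 bp around it, 3 wild-type lists held a peak at Sfi1, 1 at Eif4enif1 and 0 at Gm51877. Zfp780b, a KRAB zinc finger gene, had folds of 6.41, 6.02 and 7.46 on 14, 12 and 19 fragments (chr7:27978523-27979610). Its nearest wild-type peak was 70497 bp away, which places this region far from any wild-type call.

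At the paired starts of Jkamp and L3hypdh (chr12:72085431-72086814), a JNK-associated membrane protein and a hydroxyproline dehydratase, the folds were 6.70, 8.70 and 6.91. The start of Nf1, the neurofibromin gene that restrains RAS, had folds of 7.14, 6.52 and 6.96 on 15, 11 and 15 fragments (chr11:79339063-79339836). All 3 wild-type lists held some other peak in or beside Nf1, the nearest 2698 bp away. Nf1 thus differed from Zfp780b, Eef1e1, Mib2, Ube2j2, Snrpb2 and Ddx52, which had no wild-type peak in the gene or 1000 bp around it.

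Eef1e1 had folds of 6.03, 6.07 and 6.34 on 13, 12 and 17 fragments, the closest agreement of the 20 best after Sik2. Mib2, an E3 ubiquitin ligase of Notch ligands, had 7.40, 5.08 and 6.89, and Ube2j2, an ER-anchored ubiquitin-conjugating enzyme, had 6.42, 5.41 and 5.52. Snrpb2 had 7.48, 6.25 and 6.31 and Thg1l 5.94, 5.36 and 8.26. KO replicate 3 had the highest fold at Thg1l and replicate 1 at Mib2, Ube2j2 and Snrpb2, so no single library gave the highest fold throughout.

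The Zc3h18 start, shared with Gm39270, had folds of 6.04, 5.19 and 5.65. Zc3h18 encodes a zinc finger protein that links the nuclear cap-binding complex to RNA decay. R3hcc1l had 5.44, 5.88 and 5.48. A region shared by Rad51c, a gene of homologous recombination, and the germ-cell gene Tex14 had 4.92, 5.00 and 6.40, with 989 bp common to the 3 peaks. Ddx52, an RNA helicase, had 7.08, 5.15 and 6.69, and Prkab2, a regulatory subunit of AMP-activated kinase, had 6.02, 5.11 and 7.26.

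Sik2, a salt-inducible kinase gene, had the tightest folds of these 20 at 4.78, 4.65 and 4.85. Cep89, a centriole appendage gene, and Faap24, a Fanconi anemia core complex gene, shared a start region with folds of 5.12, 5.43 and 5.47 and the nearest wild-type peak 158606 bp away. Also among the 20 were 9430038I01Rik with 6.36, 8.85 and 6.67, E430018J23Rik with 6.25, 6.31 and 5.68, and Rprd1a, a regulator of RNA polymerase II phosphorylation, with 8.15, 4.74 and 5.95. Of the 20, Rprd1a and Thg1l had the widest gaps between KO libraries.

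The widest regions were those of Cabin1 (2167 bp), Tubgcp4 with Zscan29 (1789 bp), Sdf2l1 (1786 bp), Flvcr1 (1777 bp) and Fam214a (1755 bp). Cabin1, a calcineurin-binding protein gene, had folds of 4.61, 3.98 and 4.91 and no wild-type peak for 65652 bp. Flvcr1, a transporter gene needed for red cell formation, had 3.6, 4.91 and 5.26. At Fam214a a wild-type peak lay 49 bp away. Beyond the Sfi1 locus, 3 regions reached 3 genes: Ovol3, Polr2i and Tbcb (4.30, 3.47 and 5.95), Fam189b, Gm45927 and Scamp3 (3.85, 3.31 and 4.11), and Ddx25, Hyls1 and Pus3 (4.02, 3.25 and 4.21).

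Some knockout-only regions neighboured each other. Another lay within 50 kb of 139 of them (14.9%), which formed 68 groups, 3 of these with 3 or more regions. All 3 larger groups lay on chromosome 7: at Irf2bp1, Foxa3 and Sympk (chr7:19003873-19025248), at Nupr1, Sgf29, Bola2 and Slx1b (chr7:126625324-126696069), and at Zfp747, 9130019O22Rik and E430018J23Rik (chr7:127375724-127394418). On chromosome 7 as a whole 6.79% of 1075 gene-end regions were knockout-only, close to 6.54% over all chromosomes. No count of neighbours among other gene-end regions stands beside these groups, so they are not read as clustering.

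Genes were then read by function, in 38 lists. Each count of genes with a knockout-only region is given over the genes of the list with any gene-end region, beside 9.58% over all such genes, and no list was tested because the regions themselves were chosen by the contrast. The number of genes of a list with a gene-end peak in each library is given where it helps. Such counts include the genes that the rule selected and rise with list length. No per-library share over all genes stands beside them, so a rise in KO is not read as particular to a list. Rab GTPase genes, for example, numbered 32, 34 and 30 in wild-type and 44, 43 and 43 in KO lists. Megakaryocyte genes numbered 8, 8 and 4 against 8, 4 and 6. The share lay above 9.58% in 24 lists, and 4 lists had no such gene.

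**Figure D3:**
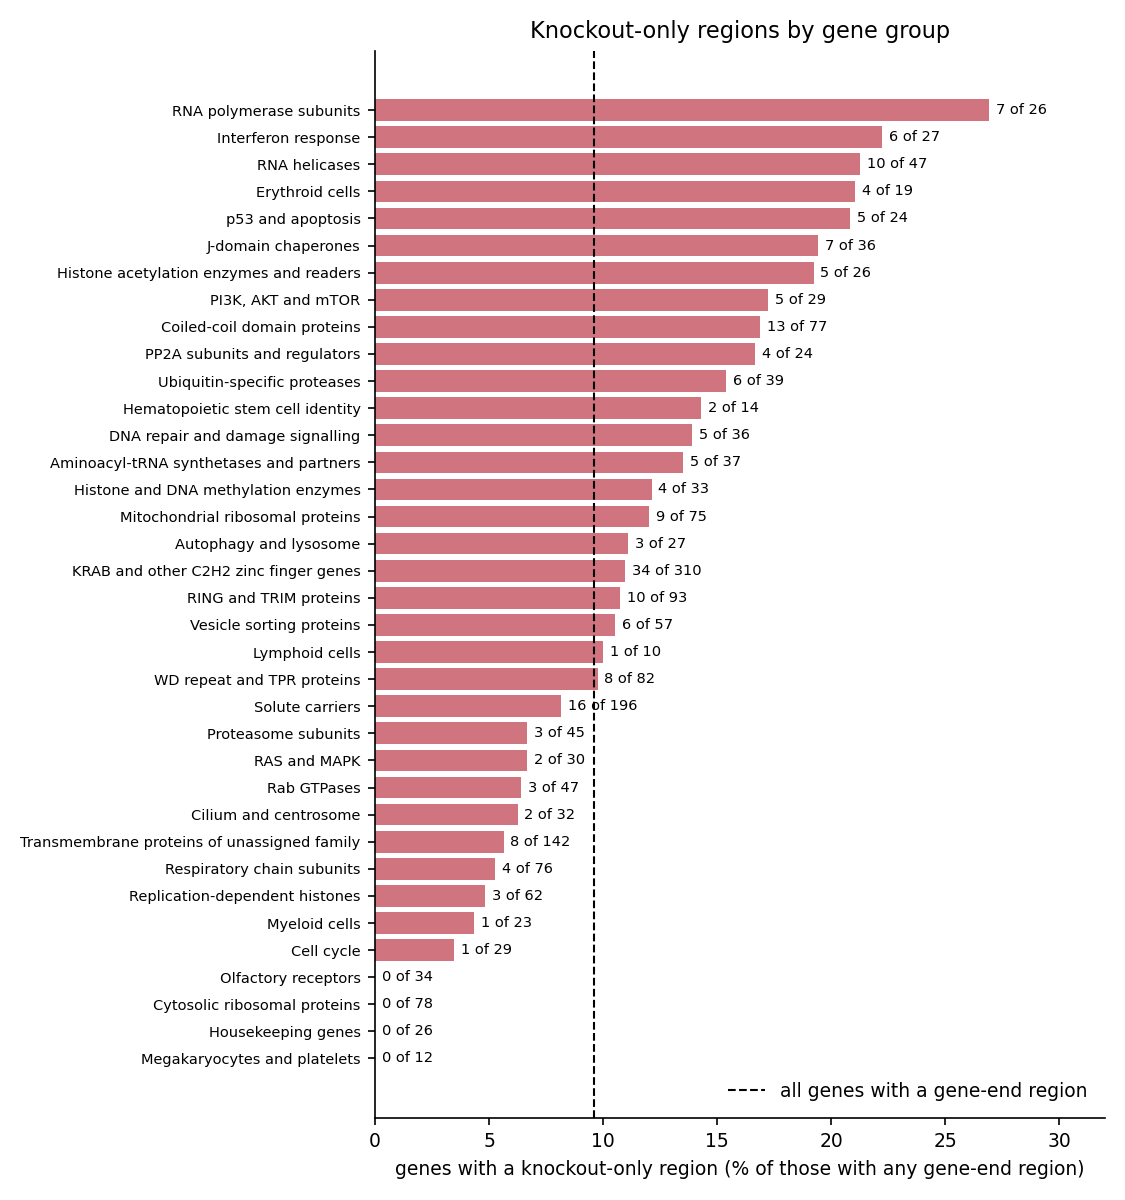
Percentage of genes with a knockout-only region among the genes of each list with any gene-end region (bars, with counts) and the value over all such genes, 9.58% (dashed line); lists with fewer than 10 such genes are not drawn. RNA polymerase subunits (7 of 26) stand at the top, and cytosolic ribosomal proteins (0 of 78), housekeeping genes (0 of 26), megakaryocyte genes (0 of 12) and olfactory receptors (0 of 34) at 0.

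The list of RNA polymerase subunits had the largest share of the 38 lists, a rank that was not tested. Of 26 RNA polymerase subunit genes, 7 had a knockout-only region: Polr2e, Polr1e, Polr2b, Polr2k, Polr3k, Polr2i and Polr3g. Polr2e, a subunit common to all 3 nuclear polymerases, had folds of 4.24, 4.33 and 4.78 (chr10:80039123-80040082), and Polr2b, the second largest polymerase II subunit, had 4.07, 4.17 and 4.55 (chr5:77310122-77310941). Per library, 16, 19 and 13 subunit genes had a gene-end peak in wild-type replicates 1, 2 and 3 and 26 in each KO list. In 3 of the 7, Polr1e among them, another region at the gene did hold a wild-type peak.

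RNA helicases of the DEAD and DEAH families unwind RNA in splicing, ribosome assembly and translation. Of 47 such genes, 10 (21.3%) had a knockout-only region, all at starts and none with a wild-type peak in another gene-end region. Besides Ddx52, Dhx36, which resolves G-quadruplexes, had folds of 6.70, 4.65 and 5.71 (chr3:62506178-62507252), and Ddx55 had 4.36, 3.75 and 4.07. The wild-type lists marked 28, 33 and 25 helicase genes and the KO lists 47, 46 and 46.

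In the interferon response list 6 of 27 genes (22.2%) had a knockout-only region. Isg15, a ubiquitin-like protein induced by interferon, had folds of 4.23, 4.44 and 5.22 on 15, 10 and 20 fragments (chr4:156200559-156201404). Xaf1, an interferon-induced pro-apoptotic gene, had 4.35, 5.38 and 4.88 (chr11:72301433-72302648). Also counted were Oasl2, Oas1a and Oas3, of the family of oligoadenylate synthetases that sense double-stranded RNA, with folds of 3.21 to 5.08. None of the 6 had a wild-type peak in another gene-end region. The wild-type lists marked 16, 15 and 14 of these genes and the KO lists 27, 24 and 26, counts that the choice of regions itself raises in KO.

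Of the PP2A genes, 4 of 24 (16.7%) had a knockout-only region. Strn4 and Strn, striatins that join PP2A to the STRIPAK complex, had folds of 5.92, 6.38 and 4.30 and of 3.96, 5.37 and 3.53. Ppp2r5d, a B56 regulatory subunit, had 4.50, 6.10 and 4.72 (chr17:46704152-46705667). Lcmt1, the methyltransferase of the catalytic subunit, had 3.30, 4.30 and 3.25, with a wild-type peak 122 bp away. KO replicate 2 had the highest fold at all 4 genes. In fragments it was highest only at Strn (10, 12 and 11) and lowest at Strn4 (17, 11 and 12). It equalled KO replicate 3 at Ppp2r5d (8, 9 and 9) and Lcmt1 (6, 7 and 7). Strn4 and Lcmt1 had a wild-type peak in another gene-end region. The wild-type lists marked 17, 20 and 18 PP2A genes and the KO lists 24, 22 and 23.

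Enzymes and readers of histone acetylation had a knockout-only region at 5 of 26 genes (19.2%). Kat6a, an acetyltransferase needed for hematopoietic stem cells, had folds of 3.36, 3.47 and 4.35 (chr8:22859473-22860644), and Sirt1, a NAD-dependent deacetylase, had 2.68, 4.49 and 4.78 at its start. Hdac10 had 3.74, 3.70 and 3.54 with no base common to the 3 peaks, Hdac1 had 2.50, 2.89 and 3.11 at a place 173 bp from a wild-type peak, and Sirt2 was reached at its 3′ end. Of the 5, 3 had a wild-type peak in another gene-end region. Among methylation enzymes the count was 4 of 33, and 3 of these, Setdb1, Ezh1 and Setd1a, were reached at the 3′ end while another gene-end region held a wild-type peak. Nsd2, an H3K36 methyltransferase, had 3.85, 4.04 and 3.77.

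Stress and growth pathways gave mixed pictures. In the p53 and apoptosis list, 5 of 24 genes (20.8%) counted, and 4 of them, Bax, Gadd45a, Trp53 and Bcl2, had a wild-type peak in another gene-end region. At Trp53, the p53 gene, the region lay 712 bp from the start and 258 bp from a wild-type peak, with folds of 2.88, 3.19 and 2.33, and at Bax, the pro-apoptotic effector, a wild-type peak lay 301 bp away. Pmaip1, the BH3-only gene Noxa, had 4.44, 3.93 and 3.52 with the nearest wild-type peak 12029 bp off. In the PI3K, AKT and mTOR list, 5 of 29 counted: Pik3r4, the regulatory partner of the autophagy kinase Vps34, had 5.28, 5.73 and 5.00, Rptor, which defines mTORC1, had 4.59, 3.75 and 5.38, and Pik3cd was reached at its 3′ end. In the RAS and MAPK list, Nf1 and Mapk8 were the 2 of 30.

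DNA repair genes counted 5 of 36 (13.9%). After Rad51c, Fanca of the Fanconi anemia core complex had folds of 3.77, 3.70 and 4.78, and Rif1, which shields broken ends, had 3.33, 3.53 and 3.99 with the nearest wild-type peak 99269 bp away. The 3 KO peaks at Rif1 had no base in common. Atm was reached at its 3′ end. Genes of tRNA charging counted 5 of 37, led by Eef1e1. Mitochondrial ribosomal protein genes counted 9 of 75 (12%), 8 of them with q of at most 0.05 in all 3 KO lists. Mrps9 had 6.14, 5.56 and 5.66, Mrpl20 had 4.48, 4.59 and 4.68, and Mrps30 had 4.12, 4.78 and 5.45. Cytosolic ribosomal protein genes counted 0 of 78. The wild-type lists marked 42, 54 and 49 of 78 mitochondrial and 72, 69 and 66 of 83 cytosolic genes. The KO lists marked 75, 72 and 73 mitochondrial and 74, 73 and 76 cytosolic genes, and these counts include the genes that the rule selected.

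Zinc finger genes gave the largest number, 34 of 310 (11%), a share near that of all genes. Zscan25 had folds of 4.76, 5.95 and 5.19, with a wild-type peak 58 bp away, and Zfp638 had 5.15, 4.65 and 6.07. Chaperones with a J domain counted 7 of 36, led by Dnajb5 (5.21, 5.46 and 4.93), and coiled-coil domain genes 13 of 77, led by Ccdc91 (4.95, 5.49 and 5.32). Solute carriers counted 16 of 196 (8.16%), proteasome subunits 3 of 45, Rab GTPases 3 of 47 and respiratory chain subunits 4 of 76, all below 9.58%. Cell-cycle genes counted 1 of 29, Rb1, at a region 580 bp from a gene end and 481 bp from a wild-type peak. Another gene-end region of Rb1 held a wild-type peak, and all 3 wild-type lists held a peak inside the gene.

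In the lists of blood cell genes the counts were small. Among stem cell identity genes 2 of 14 (14.3%) counted. Msi2, an RNA-binding regulator of self-renewal, had 5.78, 2.48 and 4.46 with no base common to the 3 peaks, and all 3 wild-type lists held a peak inside the gene. Erythroid genes counted 4 of 19 (21.1%): Epb41, the protein 4.1R gene, had 4.08, 4.13 and 3.44 on 23, 16 and 21 fragments but a wild-type peak 104 bp away, and Epb42 had 3.27, 3.37 and 4.02 with none for 26708 bp. At Epb42 the 3 KO peaks, on 6, 5 and 8 fragments, had no base in common, and only 1 reached q of at most 0.05. The myeloid list gave 1 of 23 genes (4.35%), Ly6c2 (3.11, 4.11 and 2.86), the lymphoid list 1 of 10 (10%), Cd5 (3.41, 4.22 and 3.09), and the megakaryocyte list 0 of 12. Of 5 endothelial and stromal genes and 4 genes of other organs, Kdr and Vil1 were reached, both at the 3′ end.

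Presence was next read in libraries that had no part in a choice. Gene-end regions were chosen with peaks in 2 KO lists and in neither of 2 wild-type lists, and the left-out KO and left-out wild-type lists were then read, over the 9 possible choices, which overlap. The regions had been merged with all 6 lists. Each choice gave 1539 to 2114 regions. The left-out KO list held a peak at 79.4% on average (69.0 to 85.4%), and the left-out wild-type list at 27.6% (22.8 to 34.0%). The mean difference was 51.8 percentage points (39.2 to 60.0), with the KO list higher in 9 of 9 choices. The lowest KO shares came with KO replicate 2 left out. For comparison, gene-end regions with peaks in 2 KO lists, whatever the wild-type lists held, showed 93.0% against 63.1%, a difference of 29.9 points. Requiring absence from 2 wild-type lists in itself lowers the share in the left-out wild-type list. The excess of 51.8 over 29.9 points is therefore no added support. The regions with a peak in the left-out KO list were the same whichever KO list was left out. With wild-type replicate 1, 2 or 3 left out, these numbered 1309, 1493 and 1308. The 9 choices are thus not 9 separate results. KO lists are also longer, and these shares describe the chosen regions. No p-value is given because the 9 choices share libraries.

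**Figure D4:**
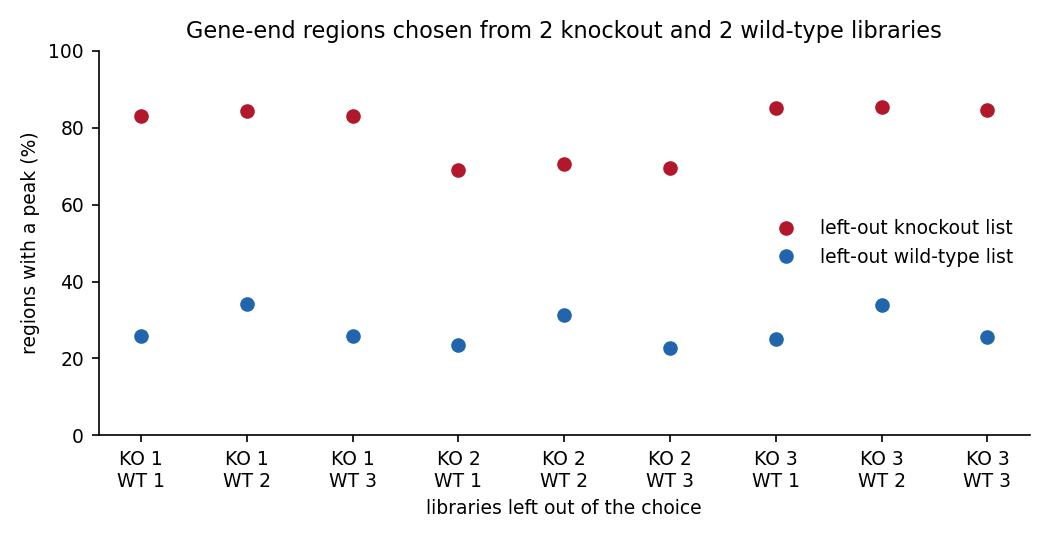
Percentage of gene-end regions with a peak (y axis) in the left-out KO list (red) and the left-out wild-type list (blue) for each of 9 choices made from the other 2 libraries of each genotype; x labels name the libraries left out. The KO points lie between 69.0 and 85.4% and the wild-type points between 22.8 and 34.0%.

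The reverse choice, 2 wild-type lists and neither of 2 KO lists, gave 15 to 38 regions per choice. There the left-out wild-type list held a peak at 21.9% on average (12 to 36.4%) and the left-out KO list at 34.7% (10 to 53.6%). The KO list was higher in 7 of these 9 choices and the wild-type list in 2, both with KO replicate 2 left out, on few regions.

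A measure apart from the rule was the body of the same genes. A gene counted as marked inside when the middle of a peak lay more than 1000 bp from both ends, with peaks of gene-end regions left out. Of the 1062 genes, 275, 347 and 279 were marked inside in wild-type replicates 1, 2 and 3 and 538, 406 and 429 in the KO replicates. The groups did not overlap, with means of 300.3 ± 40.5 and 457.7 ± 70.5 (SD, n = 3 each), a difference of 157.3 genes or 1.52-fold (two-sided exact permutation test, p = 0.1, the smallest value 3 against 3 libraries allow). With every list shortened to the length of the shortest and the same 1062 genes, an alternative added after the data were seen, 275, 290 and 279 genes were marked in wild-type and 285, 276 and 280 in KO libraries. The difference was then -1 gene (exact permutation p = 1), so at equal list length the groups overlapped. With regions and genes also chosen anew from the shortened lists, 710 genes, it was -3 (177 against 180, exact permutation p = 0.6). By number of wild-type lists, 577 genes were marked inside in none, 222 in 1, 110 in 2 and 153 in 3. The corresponding KO numbers were 433, 176, 162 and 291.

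**Figure D5:**
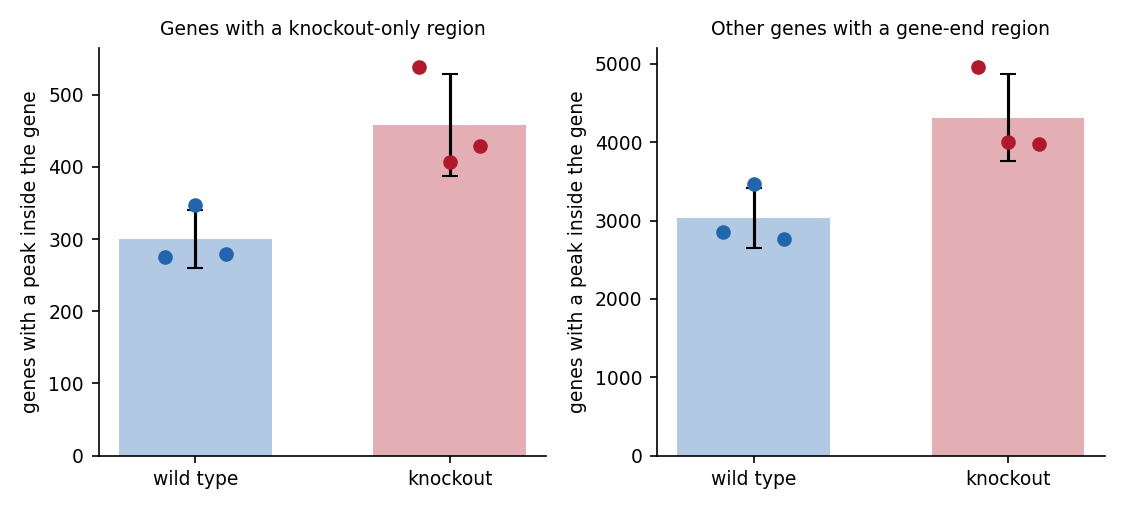
Genes with the middle of a peak more than 1000 bp inside the gene in each library (points), with means (bars) and SD (error bars, n = 3), for the 1062 genes with a knockout-only region (left) and the 10021 other genes with a gene-end region (right). Both sets had more marked genes in each KO library than in any wild-type library.

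The other 10021 genes with a gene-end region moved likewise, from 2855, 3470 and 2767 marked genes in wild-type to 4959, 4001 and 3983 in KO libraries, 1.42-fold, and differed by -71 genes at equal list length (exact permutation p = 0.3). Genes without a gene-end region differed by 1.05-fold (1463, 2013 and 1486 against 2341, 1463 and 1430, exact permutation p = 1). Of all marked genes with a gene-end region, 8.79, 9.09 and 9.16% were genes with a knockout-only region in wild-type libraries and 9.79, 9.21 and 9.72% in KO libraries. This difference of 0.562 percentage points (exact permutation p = 0.1) was examined after the counts were seen. The share was not taken at equal list length, where the counts of both gene sets overlapped between genotypes. Beyond this share, the ratios of 1.52 and 1.42 were not tested against each other.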

How the data were processed

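The deposited files are 6 narrowPeak lists of H3K27ac CUT&RUN, 1 per library. Per the submitters' processing notes, the authors used Trimmomatic, BWA, MACS2, deepTools, HOMER and ChIPseeker with GRCm38/mm10; the sources used here do not give versions, settings or any control library. The deposited columns are an integer score, the fold ratio over background at the summit, its −log10 p-value and −log10 q-value, and the summit offset in bp; the score was not used for any value printed. Summit heights are whole numbers of fragments solved from the deposited fold and −log10 p (tolerance 0.002, −log10 p under 15). Within that limit 99.997 to 100% of peaks were solved, and peaks beyond it were not.

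Peaks were merged and set against RefSeq gene ends and promoter windows (GRCm38.p6, 250 bases before to 50 after the start; 17273 of 21627 protein-coding genes). Exon, intron and UTR positions were not used here. Counts per library were compared with an exact permutation test over 20 assignments (Python 3.11.15, scipy 1.17.1). Merging and solving were tested on simulated data. Named were the 20 best ranked regions, up to 3 genes per list, the 3 last, the 5 widest, those reaching 3 genes and 2 on each side of each threshold; other genes were named after values were seen. Printed sequences are the best ranked with bases outside annotated genes, a condition added after the data were seen. The members and lists were chosen with earlier results of these data known. The gene-body count was planned with all peaks; those of gene-end regions were left out because the rule had used them. Some genes that this rule names are not reported here.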

Additional observations from a re-analysis of the deposited data

How the results depend on the processing

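The number of knockout-only regions, 935, depended most on the peak threshold. With a q-value of at most 0.05 required in every list it was 2398, with 2276 sharing a base between the 3 KO peaks, 1774 reaching a promoter and a left-out difference of 71.1 points. There the gene-body difference was 559 genes, over 2788 newly chosen genes (685.7 against 126.7, exact permutation p = 0.1). With that q-value required of KO peaks only, the number of regions was 449, with 410 sharing a base and 320 reaching a promoter. With every list shortened to the shortest, 618 regions were knockout-only and 6 met the mirrored pattern, with a left-out difference of 46.0 points. The gene-body difference then turned from 157.3 to -3 genes, or to -1 with the same 1062 genes. Distances of 500 or 2000 bp, merging over 200 bp gaps, a 1000 bp margin to wild-type peaks and autosomes alone gave 738 to 1047 regions. Leaving out 1 library gave 1231 to 1500 regions, 1494 without KO replicate 2 and 1500 without wild-type replicate 2, since fewer lists then had to be met. The number with a shared base then ran from 1164 to 1494, the number reaching a promoter from 654 to 983 and the gene-body difference, over 1377 to 1716 newly chosen genes, from 153.8 (without KO replicate 1, exact permutation p = 0.2) to 301. Over the same 1062 genes it ran from 117.2 without KO replicate 1 to 183.2 without KO replicate 2 (exact permutation p = 0.1 in all 6). With 2 KO peaks in a region a shared base is nearly given by construction. With gene-end peaks kept, an alternative added after the data were seen, the gene-body difference was 202.3 (exact permutation p = 0.1).

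Libraries with the same replicate number did not deviate together (correlations of 0.00657, 0.0139 and -0.00358), so the numbers were not taken to pair libraries. With a replicate block the gene-body difference was 157.3 genes with an exact p = 0.25, the smallest 3 pairs allow. Depth limits single regions: 389 of 935 had a lowest KO summit of at most 5 fragments, and the sources used here do not give read totals.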

Other observations

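The E-box CACGTG, bound by MYC and USF proteins, was present in 10.6% of the 300-base promoter windows reached by knockout-only regions, 11.2% of those of regions in all 6 lists and 7.84% of all windows. The CRE was present in 2.77%, 4.53% and 2.25%, and the NRF1 core in 4.78%, 5.05% and 2.65%. For AP-1 the shares were 4.93%, 3.84% and 7.11%, and for Runx 4.31%, 3.12% and 4.84%.

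A knockout-only region was found at 6 of 39 ubiquitin-specific protease genes (15.4%) and at 10 of 93 RING and TRIM genes (10.8%), beside 9.58% over all genes, with no test. Usp53 had folds of 6.06, 3.90 and 3.81 in the 3 KO libraries, and Usp15 had 3.89, 4.02 and 2.39 on 20, 15 and 16 fragments with a wild-type peak 425 bp away. In the autophagy and lysosome list 3 of 27 genes counted, among them Ctsl, the cathepsin L gene, with 5.16, 4.95 and 6.91. Of 57 vesicle sorting genes 6 counted, led by Snx11 with 5.21, 5.34 and 5.03. The histone genes H2ac22 and H2bc22 shared a region with 24, 14 and 31 fragments at the summit but folds of 3.20, 2.86 and 3.64. In 66 regions the promoter reached was that of a gene that is not protein-coding. Of the 1062 genes, 27 had 2 or more knockout-only regions.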
